A study of Mus musculus with 14 samples.

Results

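The non-fibrillar and fibril-associated collagens described here are 10 genes, Col6a1, Col6a2, Col6a3, Col7a1, Col8a1, Col12a1, Col14a1, Col15a1, Col16a1 and Col18a1. They were taken by gene symbol from the 47729 genes of the count files, 1 Ensembl identifier each, and all 10 passed the filter on low counts that left 17926 genes to test. Polyadenylated RNA of whole mouse kidney was sequenced in 14 libraries of 4 groups, which allow the effect of ureteral obstruction to be asked in each genotype and the effect of the genotype label in each state. The groups are wild-type untreated kidney (WT normal, 3 libraries), wild-type kidney 7 days after unilateral ureteral obstruction (WT UUO, 4 libraries), untreated kidney of mice labelled SMOC2 transgenic (SMOC2 normal, 3 libraries) and kidney so labelled 7 days after obstruction (SMOC2 UUO, 4 libraries). UUO closes the ureter of one kidney and is a model of kidney fibrosis. The labels name no strain or age for these groups, no promoter for the transgene and no animal for each library, and the treatment protocol attached to the samples describes folic acid in male Balb/c mice, which differs from the treatment labels used for grouping. Smoc2, which encodes a secreted matrix protein of the SPARC family, was at 12.6 to 43.3 CPM in WT normal, 10.6 to 27.8 in SMOC2 normal, 131 to 158 in WT UUO and 83.9 to 124 in SMOC2 UUO libraries. CPM is a gene's count relative to the scaled library size, on the usual CPM scale. Smoc2 was therefore not higher in the libraries labelled SMOC2, and in UUO kidney it was lower in all of them than in any wild-type library. Each genotype difference given here is one between labels.

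Collagens of the fibrillar types form the ropes of a scar, while the genes described here encode the proteins around those ropes. Collagen VI is assembled from its alpha 1, alpha 2 and alpha 3 chains into beaded filaments near cells and basement membranes. Collagens XII, XIV and XVI are fibril-associated collagens with interrupted triple helices (FACIT or FACIT-like), which sit on fibril surfaces. Collagens XV and XVIII belong to the basement membrane zone, carry glycosaminoglycan chains and end in an endostatin domain, collagen VIII forms short-chain networks best known from vessels, and collagen VII forms the anchoring fibrils of epithelia. In the kidney, interstitial fibroblasts, pericytes, endothelium and some epithelia are known sources of these proteins.

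Total counts ran from 19483994 to 30033405 per library, and the lowest count of any of the 10 genes in a library was 87 (Col8a1). The kidney label was borne out by the marker lists: summed proximal tubule markers reached 16900 to 23400 CPM in normal and 1400 to 3740 CPM in UUO libraries, against 0.353 to 3.77 CPM for adipose and 1.70 to 6.21 CPM for skeletal muscle markers over all libraries. WT normal library 3 stood above the other normal libraries in the summed level of the 10 collagens (797 CPM, where the other 5 had 461 to 636), of 9 fibroblast and pericyte markers (504 against 303 to 445) and of 8 endothelial markers (950 against 670 to 910). Within the SMOC2 normal group, library 3 was the highest for all 3 sums.

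All 10 collagen genes rose after obstruction in wild-type kidney and all 10 rose in kidney labelled SMOC2 (edgeR quasi-likelihood test, adjusted p under 0.05 over all genes). Of all genes tested, 31.3% rose in the first comparison and 32.5% in the second. The median log2 difference of the 10 genes was 1.86 in wild type and 2.12 under the SMOC2 label, beside 0.045 and 0.036 over all genes. The smallest and largest were 1.14 (Col14a1) and 4.28 (Col12a1) in wild type, and 0.91 (Col7a1) and 4.58 (Col12a1) under the label. UUO and normal libraries did not overlap for 9 of the 10 genes in wild type, Col14a1 being the exception, and for 9 of 10 under the label, where it was Col7a1. Over all genes, non-overlap with UUO higher was found for 31.3% and 32.6%. In whole tissue, more cells of a type and more RNA per cell cannot be told apart.

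**Figure D1:**
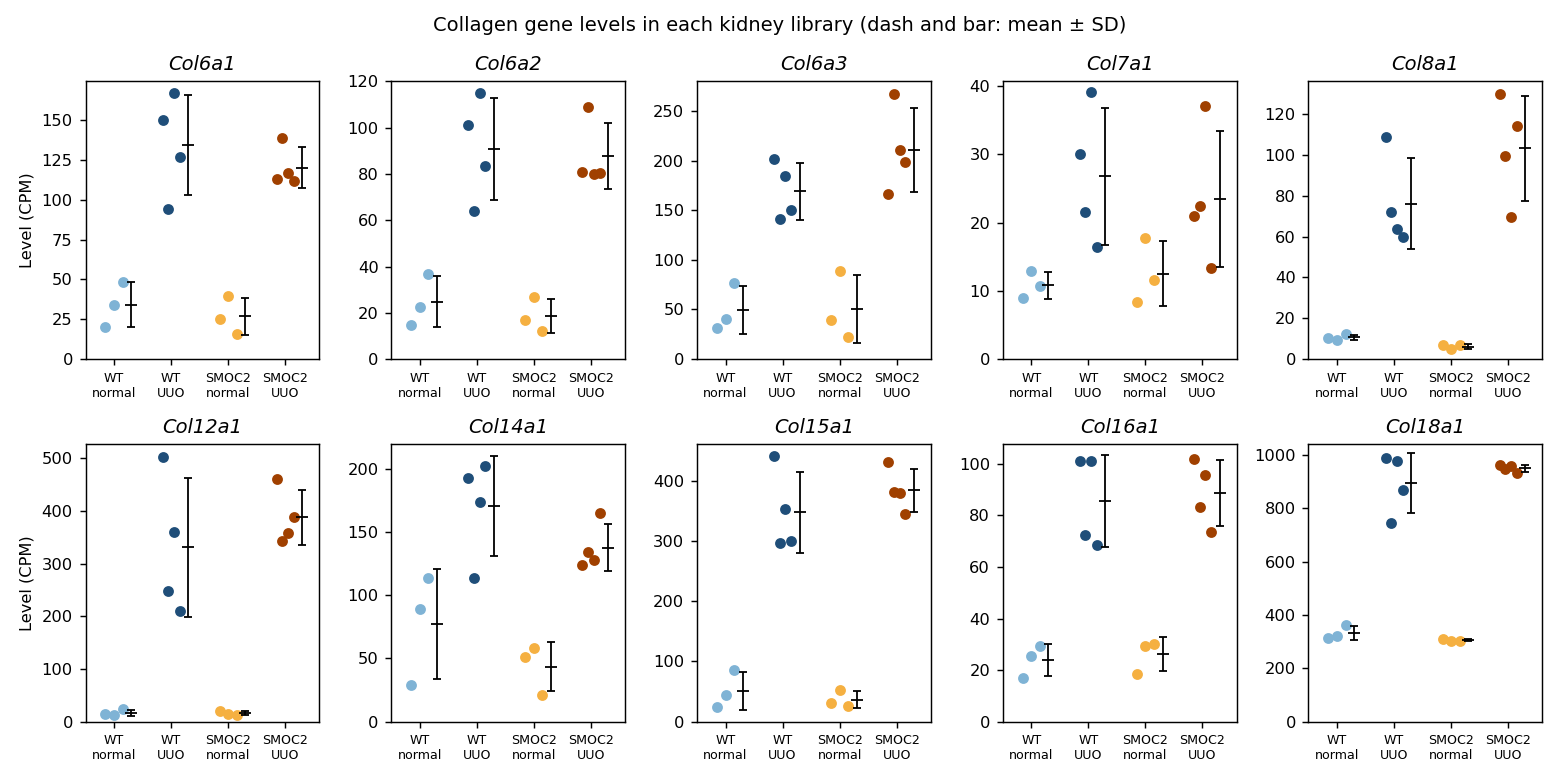
Levels of the 10 collagen genes in CPM (linear axis from 0, its own scale in each panel) in every library of the 4 groups, with the group mean and SD beside the points. The UUO libraries lie above the normal ones in each panel, with an overlap in wild type for Col14a1 and under the SMOC2 label for Col7a1.

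Col6a1 (ENSMUSG00000001119, chromosome 10, 76708792 to 76726168, minus strand, 34 merged exons), Col6a2 (ENSMUSG00000020241, chromosome 10, 76595762 to 76623630, minus strand, 29 merged exons) and Col6a3 (ENSMUSG00000048126, chromosome 1, 90765923 to 90843971, minus strand, 45 merged exons) encode the chains of the collagen VI filament. All coordinates of genes are those of GENCODE M21 on GRCm38 (mm10). Col6a1 and Col6a2 are neighbours, 85.2 kb apart, whereas Col6a3 lies on another chromosome. Sequence before their RefSeq starts is shown because the 3 genes moved together. That of Col8a1, described further on, is shown because its measured response differed most between the labels, although that difference did not pass the test. RefSeq promoter windows (GRCm38.p6, 250 bases before the start) were found for 8 of the 10 genes, in 10 windows. For Col6a1 only the bases around its AP-1 match are printed, so that stretch was picked by the match. Capitals mark matches on either strand to the AP-1 motif TGANTCA, the TEAD motif GGAATG, the GC box GGGCGG or the TATA box TATAAA; GC box matches can overlap one another.

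Col6a1, 27 bases around its AP-1 match, chr10:76726118-76726144, minus strand: gctgatgctgTGACTCActcagctttg
Col6a2, chr10:76623631-76623880, minus strand: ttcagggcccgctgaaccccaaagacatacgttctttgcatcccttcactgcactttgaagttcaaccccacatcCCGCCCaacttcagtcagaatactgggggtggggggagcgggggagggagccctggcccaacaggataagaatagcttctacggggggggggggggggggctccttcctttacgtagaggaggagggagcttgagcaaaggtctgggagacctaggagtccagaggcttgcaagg
Col6a3, chr1:90843972-90844221, minus strand: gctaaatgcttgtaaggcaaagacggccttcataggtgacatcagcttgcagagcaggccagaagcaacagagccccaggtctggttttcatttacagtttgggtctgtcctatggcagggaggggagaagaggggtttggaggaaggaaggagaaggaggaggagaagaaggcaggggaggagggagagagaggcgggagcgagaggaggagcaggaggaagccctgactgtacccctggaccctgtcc
Col8a1, chr16:57754738-57754987, minus strand: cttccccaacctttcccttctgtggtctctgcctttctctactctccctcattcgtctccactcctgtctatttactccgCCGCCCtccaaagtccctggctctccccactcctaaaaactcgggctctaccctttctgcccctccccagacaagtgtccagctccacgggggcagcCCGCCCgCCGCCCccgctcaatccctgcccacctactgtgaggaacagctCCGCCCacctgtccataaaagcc

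The AP-1 match of Col6a1 begins 90 bases before the RefSeq start, which lies inside the GENCODE gene, so that the printed stretch is within the gene coordinates given above. Of the 2 windows of Col6a2, the one not printed holds 1 TEAD match and 3 GC boxes. The AP-1 motif was found in 6.75% of all 32851 promoter windows of the same length. It was found in 1 of the 10 collagen windows. GC boxes were found in 6 of 10 collagen windows and in 32.7% of all windows, and Col8a1 had 4 of them, which begin 170, 73, 66 and 23 bases before its start. The TEAD motif was found in 2 of 10 collagen windows (12.6% of all), and the TATA letters in 0 of 10 (12.4% of all). The Col6a3 window held none of the 4 motifs. These matches describe letters only and say nothing of binding.

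Col6a1 was at 20.3, 33.8 and 48.4 CPM in WT normal and at 150, 94.2, 167 and 127 CPM in WT UUO kidney, and at 24.9, 39.3 and 16.0 CPM in SMOC2 normal and 113, 139, 117 and 112 CPM in SMOC2 UUO kidney. Every UUO library was above every normal library of either label. The rise was 3.93-fold in wild type (log2 1.97, SE 0.31, edgeR adjusted p = 7.83e-05) and 4.51-fold under the SMOC2 label (log2 2.17, SE 0.32, edgeR adjusted p = 3.57e-05). Col6a2 went from 14.9, 22.5 and 36.7 CPM to 101, 64.2, 115 and 83.4 CPM in wild type, and from 16.8, 26.8 and 12.2 CPM to 81.0, 109, 80.2 and 80.6 CPM under the label. Its libraries kept nearly the order of those of Col6a1, and its log2 differences were 1.88 (SE 0.31) and 2.24 (SE 0.32). Col6a3, whose chain is the longest of the filament and releases the fragment endotrophin, was at 31.3, 40.4 and 76.5 CPM in WT normal and 202, 141, 185 and 150 CPM in WT UUO kidney. Under the label it was at 39.6, 88.4 and 22.2 CPM in normal and 167, 268, 211 and 199 CPM in UUO kidney. Normal libraries 3 of both labels were the high ones, and UUO stayed above them. Its log2 differences were 1.78 (SE 0.40) and 2.08 (SE 0.40), and the second was 2.78 without SMOC2 normal library 3.

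Since the chains are assembled together, their ratio within each library was compared, which no library scaling can alter. Per exon length, Col6a2 stood to Col6a1 at 0.350 to 0.401 in the 6 normal libraries and at 0.346 to 0.414 in the 8 UUO libraries. The UUO range contains the normal range. The lengths are merged exons of all annotated forms, 8326 bases for Col6a2 and 4380 for Col6a1. The height of this ratio therefore depends on the gene models and does not measure the proportion of the chains, whereas its change between states does not depend on them. The log2 ratio differed between UUO and normal by -0.02 (exact interval -0.12 to 0.07, two-sided exact permutation test within each label, p = 0.616, where 0.000816 is the smallest p possible). This is the mean of -0.09 in wild type and 0.04 under the SMOC2 label. Col6a3 stood to Col6a1 at 0.438 to 0.823 in normal and at 0.407 to 0.705 in UUO libraries. Here the difference was -0.07 on the log2 scale (exact interval -0.34 to 0.20, two-sided exact permutation test, p = 0.584), the mean of -0.16 in wild type and 0.02 under the label. Between labels in UUO kidney, the Col6a3 to Col6a1 ratio was 0.494, 0.548, 0.407 and 0.434 in wild type and 0.540, 0.705, 0.659 and 0.650 under the SMOC2 label. These values overlap by 1 library on each side and were not tested.

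**Figure D2:**
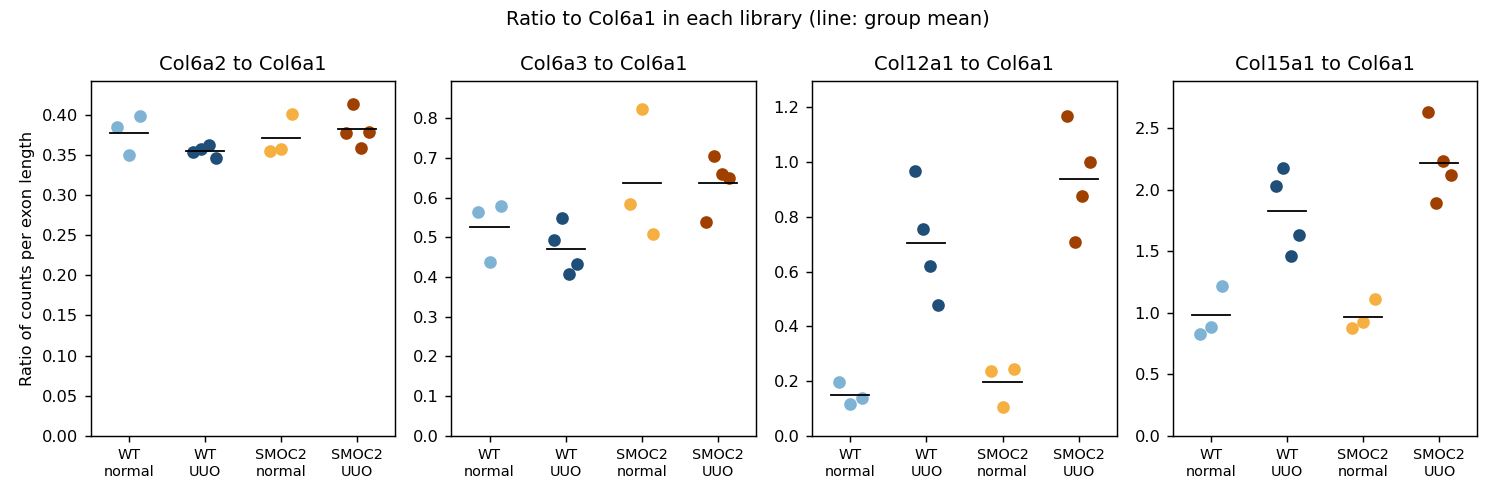
Ratio of the counts per exon length of Col6a2, Col6a3, Col12a1 and Col15a1 to those of Col6a1 in every library (linear axes from 0, lines at group means). The collagen VI chains have overlapping ratios in normal and UUO kidney, whereas the ratios of Col12a1 and Col15a1 are higher in all 8 UUO than in all 6 normal libraries.

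Other collagen VI chains did not follow the same course. Col6a6, whose alpha 6 chain can take the place of alpha 3 in the filament, fell in both labels, from 18.1 to 7.21 CPM as group means in wild type (log2 -1.33, SE 0.31, edgeR adjusted p = 0.00204) and from 7.07 to 2.88 CPM under the label (log2 -1.30, edgeR adjusted p = 0.00339). Col6a4, another chain of this kind, rose in wild type from 0.264, 0.335 and 0.896 CPM to 4.45, 8.68, 10.2 and 8.29 CPM (log2 3.93, edgeR adjusted p = 3.10e-04). Under the label it was at 1.38, 5.38 and 0.312 CPM in normal and at 2.88 to 4.99 CPM in UUO kidney, a log2 difference of 0.57 that did not pass the test (edgeR adjusted p = 0.431). Its normal libraries held only 6, 6 and 23 counts in wild type and 22, 97 and 6 under the label. A difference in response between the labels was not called for any of the 13 other non-fibrillar collagens tested, Col6a4 included. For Col6a5 the values were -0.97 and -0.85 on the log2 scale, with edgeR adjusted p = 0.132 and 0.203.

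Among the fibril-associated collagens, Col12a1 had the largest change of the 10 genes in both labels. Col12a1 (ENSMUSG00000032332, chromosome 9, 79598991 to 79718831, minus strand, 66 merged exons), whose long chain bridges collagen I fibrils, was at 13.9, 13.5 and 23.3 CPM in WT normal and at 503, 248, 361 and 211 CPM in WT UUO kidney. In the SMOC2 groups it was at 20.5, 14.5 and 13.6 CPM in normal and 461, 343, 359 and 389 CPM in UUO libraries. Even the lowest UUO library was far above the highest normal library. The rise was 19.5-fold in wild type (log2 4.28, SE 0.33, edgeR adjusted p = 1.09e-07) and 24.0-fold under the label (log2 4.58, SE 0.33, edgeR adjusted p = 6.37e-08), and 98.4% of all genes tested had the same or a lower log2 difference in each comparison. Relative to Col6a1 per exon length, Col12a1 stood at 0.106 to 0.245 in normal and 0.478 to 1.17 in UUO libraries.

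Col14a1 (ENSMUSG00000022371, chromosome 15, 55307750 to 55520803, plus strand, 49 merged exons), the close relative of Col12a1 that is known from the regulation of fibril diameter, moved far less. It was at 29.4, 88.9 and 114 CPM in WT normal and 193, 114, 174 and 202 CPM in WT UUO kidney. WT normal library 3 reached the level of WT UUO library 2, so that the groups met. The log2 difference was 1.14 (SE 0.39, edgeR adjusted p = 0.0213), and without WT normal library 1, the lowest, it was 0.75 and no longer passed the test (edgeR adjusted p = 0.0661). The adjusted p over its alternatives ran from 0.00883 to 0.0661. In the SMOC2 groups it went from 51.2, 57.9 and 21.3 CPM to 124, 134, 128 and 165 CPM (log2 1.67, SE 0.40, edgeR adjusted p = 0.00249), with no overlap. Col16a1 (ENSMUSG00000040690, chromosome 4, 130047840 to 130099283, plus strand, 72 merged exons), a FACIT-like chain, was at 17.0, 25.6 and 29.2 CPM in WT normal and 101, 72.2, 101 and 68.5 CPM in WT UUO libraries. Its SMOC2 libraries had 18.5, 29.5 and 30.3 CPM in normal and 102, 83.4, 95.6 and 73.5 CPM in UUO kidney. The values of both labels nearly coincide in each state, and the log2 differences were 1.84 (SE 0.22) and 1.76 (SE 0.22).

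Col15a1 (ENSMUSG00000028339, chromosome 4, 47208161 to 47313167, plus strand, 46 merged exons) and Col18a1 (ENSMUSG00000001435, chromosome 10, 77052178 to 77166548, minus strand, 44 merged exons) encode the endostatin-bearing collagens of the basement membrane zone. Col15a1 was at 24.4, 43.5 and 85.3 CPM in WT normal and 440, 297, 352 and 300 CPM in WT UUO kidney, and at 31.4, 52.7 and 25.6 CPM in SMOC2 normal and 431, 381, 380 and 344 CPM in SMOC2 UUO kidney. The lowest UUO library was above the highest normal one by more than the whole range of the normal libraries. The rise was 6.79-fold in wild type (log2 2.76, SE 0.36, edgeR adjusted p = 1.35e-05) and 10.5-fold under the label (log2 3.39, SE 0.37, edgeR adjusted p = 2.48e-06). Without WT normal library 3, the highest normal library, the wild-type log2 difference was 3.36. Relative to Col6a1 per exon length, Col15a1 stood at 1.22 or less in every normal library and at 1.46 to 2.63 in UUO libraries. Its gene model shares 14 exonic bases with Gm12426 on the opposite strand, 0.2% of its exon length, and the strand setting of the counting is not known.

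Col18a1 had the tightest replicates of the group. It was at 313, 321 and 361 CPM in WT normal and 311, 304 and 302 CPM in SMOC2 normal kidney. After obstruction it was at 986, 744, 975 and 867 CPM in wild type and 963, 946, 957 and 931 CPM under the label. The 4 SMOC2 UUO libraries lie within the range of the wild-type ones. The log2 differences were 1.43 (SE 0.11, edgeR adjusted p = 9.16e-08) and 1.63 (SE 0.11, edgeR adjusted p = 3.19e-08), so that a rise of under 4-fold was called with one of the smallest adjusted p values of the 10 genes. The RefSeq table gives Col18a1 promoter windows at more than 1 start, known for its short and long forms, and the counts per gene do not separate them.

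Col8a1 (ENSMUSG00000068196, chromosome 16, 57624258 to 57754737, minus strand, 4 merged exons), the alpha 1 chain of collagen VIII, was at 10.5, 9.56 and 12.1 CPM in WT normal and 6.76, 4.83 and 6.82 CPM in SMOC2 normal kidney. After obstruction it was at 109, 72.2, 63.5 and 60.0 CPM in wild type and 130, 99.5, 69.7 and 114 CPM under the label. The SMOC2 normal libraries are all below the WT normal ones, while the UUO libraries of the labels overlap. The rise was 7.10-fold in wild type (log2 2.83, SE 0.25, edgeR adjusted p = 3.79e-07) and 16.8-fold under the label (log2 4.07, SE 0.27, edgeR adjusted p = 3.52e-08). Col8a2, the partner chain, rose with it, from 0.411 to 8.38 CPM as group means in wild type (log2 4.34, SE 0.42) and from 0.391 to 7.09 CPM under the label (log2 4.20). Per library, Col8a2 was at 0.208 to 0.689 CPM in normal and 5.21 to 13.4 CPM in UUO kidney.

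Col7a1 (ENSMUSG00000025650, chromosome 9, 108953586 to 108984875, plus strand, 116 merged exons), the anchoring fibril collagen, changed least clearly under the SMOC2 label. In wild type that gene was Col14a1, described above. Col7a1 values follow for both labels. Col7a1 was at 8.90, 12.9 and 10.7 CPM in WT normal and 30, 21.5, 39.2 and 16.4 CPM in WT UUO kidney (log2 1.31, SE 0.36, edgeR adjusted p = 0.00580). In the SMOC2 groups it was at 8.33, 17.7 and 11.6 CPM in normal and 21.0, 22.5, 37.1 and 13.3 CPM in UUO kidney (log2 0.91, SE 0.36, edgeR adjusted p = 0.0387). SMOC2 UUO library 4 lay below SMOC2 normal library 3. The call under the label was lost without SMOC2 normal library 1 (log2 0.69), without SMOC2 normal library 4 (0.85), without SMOC2 UUO library 2 (0.93) or 3 (0.60), and with limma-voom (0.88). The adjusted p over these and the other alternatives ran from 0.0130 to 0.153. The urothelial markers, an epithelium that UUO specimens can hold, summed to 5.87 to 35.8 CPM in normal and 21.8 to 280 CPM in UUO libraries, and their part in the Col7a1 values was not tested.

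**Figure D3:**
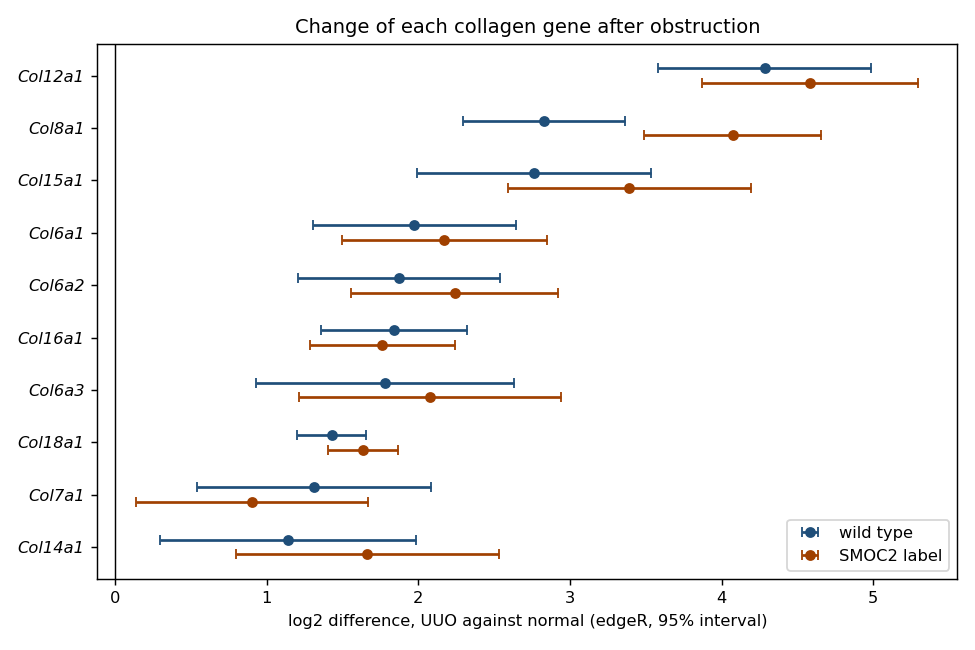
Log2 difference of UUO against normal for each gene, with its 95% interval from the edgeR fit, in wild type (blue) and under the SMOC2 label (brown). Every interval lies above 0, Col12a1 lies farthest right at 4.28 and 4.58, and the intervals of Col8a1 for the labels (means 2.83 and 4.07) do not overlap. The interaction, which tests that label difference, was not passed by any of the 10 genes, Col8a1 included.

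To compare the genes with each other, levels were divided by exon length (CPM per kb). That length merges the exons of all annotated forms of a gene, used or not, so the order between genes also depends on the gene models. In WT normal kidney Col18a1 was highest at 47.2 ± 3.65 (SD, n = 3), followed by Col14a1 at 11 ± 6.19, Col15a1 at 8.04 ± 4.91, Col6a1 at 7.80 ± 3.20, Col6a3 at 4.13, Col16a1 at 3.55, Col6a2 at 2.96, Col8a1 at 1.37, Col12a1 at 1.11 and Col7a1 at 1.05 CPM per kb. Only Col18a1 stood apart from its neighbour by more than the library ranges at the top of this order, and the ranges of Col6a2 and Col8a1 did not overlap either. The ranges of the other neighbours overlapped. After obstruction in wild type the order was Col18a1 at 127 ± 16.0 (SD, n = 4), Col15a1 at 54.7 ± 10.5, Col6a1 at 30.7 ± 7.17, Col14a1 at 24.3 ± 5.67, Col12a1 at 21.7 ± 8.63, Col6a3 at 14.2, Col16a1 at 12.7, Col6a2 at 10.9, Col8a1 at 9.73 and Col7a1 at 2.60 CPM per kb. Col18a1, Col15a1 and Col6a1 stood apart from one another, as Col8a1 did from Col7a1, and the ranges of the neighbours between overlapped. In the SMOC2 groups Col18a1 was also first (43.5 and 135 CPM per kb in normal and UUO), Col15a1 reached 60.5 and Col12a1 25.5 CPM per kb after obstruction, and Col7a1 was last there at 2.28.

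The composition of the 10 genes shifted with obstruction. Of their summed level per exon length, Col18a1 made up 55.1% ± 10.2 (SD, n = 3) in WT normal, 59.0% ± 8.62 in SMOC2 normal, 41.4% ± 2.19 (SD, n = 4) in WT UUO and 41.6% ± 1.0 in SMOC2 UUO kidney. Col15a1 went from 8.58% and 7.52% in the WT and SMOC2 normal groups to 17.7% and 18.6% after UUO, and Col12a1 from 1.26% and 1.44% to 6.87% and 7.83%. The share of Col14a1 was 11.8% ± 4.86 (SD, n = 3) and 8.05% ± 2.90 in the normal groups and 7.89% ± 1.56 (SD, n = 4) and 6.06% ± 0.991 after UUO. Its normal libraries (4.72% to 14.7%) and UUO libraries (5.24% to 10.1%) overlapped, and in each label 1 normal library lay below every UUO library. These shares rest on the same merged exon lengths, are descriptions and were not tested.

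**Figure D4:**
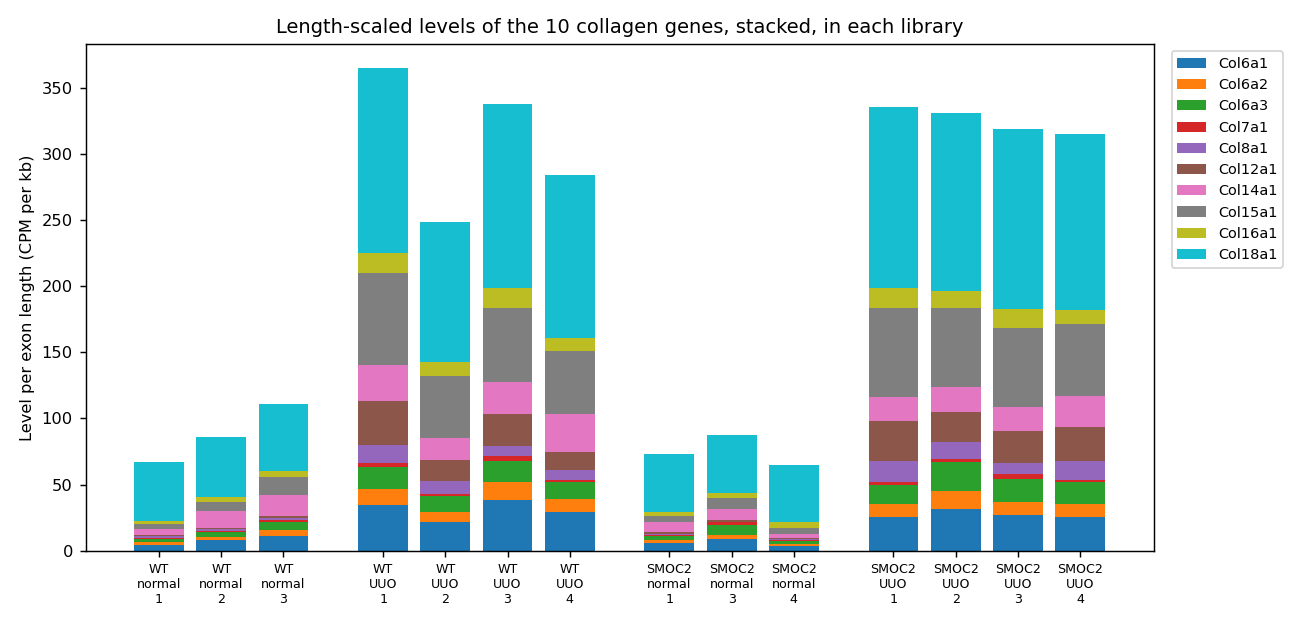
Stacked levels per exon length (CPM per kb) of the 10 collagen genes in each library, grouped by label and state, each colour 1 gene. Col18a1 is the largest segment in every library, and the Col15a1 and Col12a1 segments take a larger share in UUO than in normal kidney.

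Marker lists of matrix-producing cells and of macrophages were higher as sums after obstruction. The 9 fibroblast and pericyte markers summed to 347 to 504 CPM in WT normal, 303 to 445 in SMOC2 normal, 877 to 1050 in WT UUO and 817 to 976 in SMOC2 UUO libraries, with 8 of 9 higher in wild type and 7 of 9 under the label by the edgeR test, where 31.3% and 32.5% of all genes were higher, and none at 0 counts in all libraries. Their log2 differences ran from 0.43 to 2.52 in wild type and from 0.19 to 2.65 under the label. The 7 myofibroblast and smooth muscle markers summed to 103 to 183 CPM in normal and 466 to 914 CPM in UUO libraries, and 6 of 7 rose in each label. With limma-voom 4 of 7 were called in each, and under the label 4 were called without SMOC2 normal library 1, SMOC2 normal library 4 or SMOC2 UUO library 2. The 6 macrophage markers summed to 184 to 253 CPM in normal and 752 to 1110 CPM in UUO libraries, with 6 of 6 higher in wild type and 5 of 6 under the label, and median log2 differences of 3.54 and 3.63. The 8 endothelial markers went the other way as a sum, from 670 to 950 CPM in normal to 558 to 669 CPM in UUO libraries. Of these 8, 5 fell and 0 rose in wild type, where 29.8% of all genes fell, and 4 fell under the label, where 30.4% of all genes fell. The 1 endothelial marker that rose under the label was Cdh5, the endothelial cadherin, from 54.6 to 77.3 CPM. For comparison, the 10 collagens summed to 461 to 797 CPM in normal and 1870 to 2810 CPM in UUO libraries. The part of these cell types in the collagen rises was not tested.

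**Figure D5:**
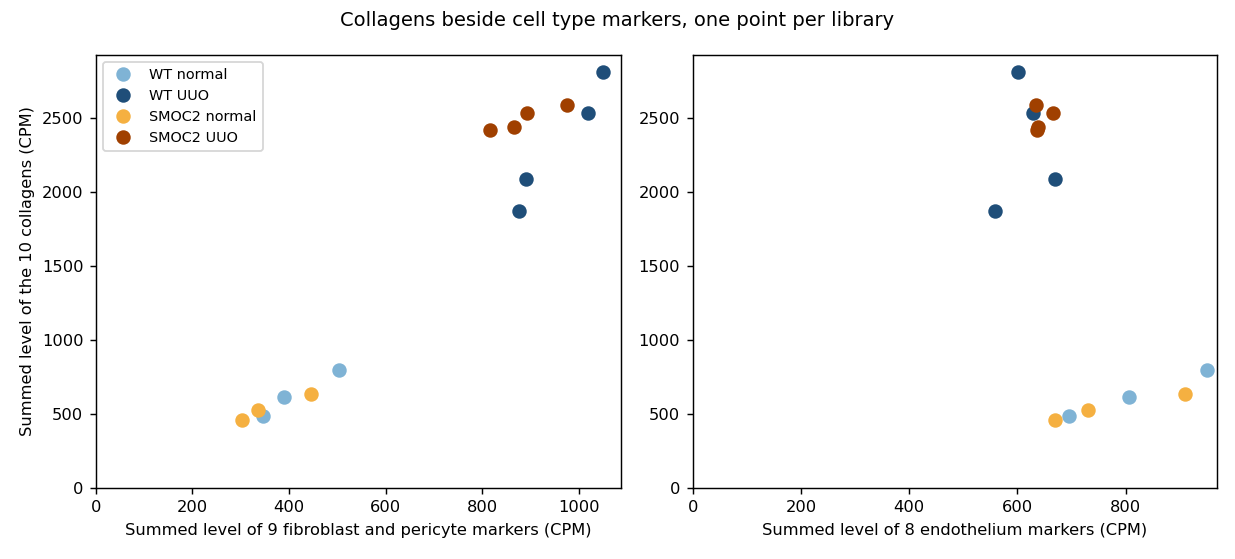
Summed level of the 10 collagens against the summed level of 9 fibroblast and pericyte markers (left) and 8 endothelial markers (right), in CPM on linear axes from 0, 1 point per library. UUO libraries are higher on both axes on the left (877 to 1050 and 817 to 976 CPM against at most 504), and lie at or below the lowest normal library in the endothelial sum.

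Libraries of a group varied together more for some pairs of genes than for others. After subtraction of the group means, Col6a1 and Col6a2 had a Pearson r of 0.985 over the 14 libraries, Col6a1 and Col6a3 0.922, Col6a2 and Col15a1 0.879, and Col6a1 and Col14a1 0.869. Col12a1 had an r of 0.746 with Col18a1 and 0.649 with Col8a1, and Col7a1 0.725 with Col16a1. These pairs were no separate sets, since Col18a1 had 0.647 with Col6a2 and 0.625 with Col6a1, and Col16a1 0.656 with Col15a1. Col8a1 had negative values with the collagen VI genes (-0.123 with Col6a1, -0.164 with Col6a3) and with Col7a1 (-0.382). The libraries share their scaling, so these values are descriptions. Outside the 10 genes, the 5 whose log2 level over all 14 libraries was most like the mean standardised level of the 10 were Lix1l, Cmtm3, Lhfp, Mrc2 and Sparc, each with r = 0.994, a value that mostly reflects the contrast of UUO and normal. With group means subtracted, the 5 most alike were Lix1l (0.946), Gata6 (0.942), Col1a2 (0.940), Arhgef40 (0.936) and Col4a2 (0.934), among them chains of the fibrillar collagen I and of basement membrane collagen IV.

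Between the genotype labels, 0 of the 10 genes passed the edgeR test in normal kidney and 0 in UUO kidney. An unadjusted edgeR p under 0.05 was found for 1 of 10 in each, Col8a1 both times, and for 12.8% and 15.2% of all genes, and DESeq2 and limma-voom also called 0. Of all genes tested, 0.0279% and 0.831% were called. The log2 differences of SMOC2 from WT ran from -0.83 (Col14a1) to 0.22 (Col7a1) in normal and from -0.31 (Col14a1) to 0.44 (Col8a1) in UUO kidney. For Col8a1 the label difference before obstruction was -0.81 (95% interval -1.39 to -0.23, edgeR adjusted p = 0.292, where alternatives gave 0.114 to 0.542), and after it 0.44 (95% interval 0.01 to 0.87, edgeR adjusted p = 0.325, where alternatives gave 0.120 to 0.555). The SMOC2 and WT libraries did not overlap for 2 of 10 genes in normal kidney, Col8a1 and Col18a1, both lower under the label, and for 0 of 10 in UUO kidney, where 16.8% and 9.85% of all genes did not overlap. The narrowest interval was that of Col18a1 in UUO kidney, -0.11 to 0.29 around 0.09, and a wide one was that of Col6a3 in normal kidney, -0.85 to 0.89 around 0.02.

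The interaction asks whether the response to obstruction differed between the labels, and 0 of 10 genes passed it, as did 0% of all genes. By unadjusted p, 1 of 10 was under 0.05 in the edgeR fit, beside 6.44% of all genes, and DESeq2 called 0 of 10. The largest was Col8a1, whose log2 rise was 1.24 greater under the SMOC2 label (95% interval 0.52 to 1.97, edgeR adjusted p = 0.570, where alternatives gave 0.0943 to 0.818). All 4 SMOC2 UUO libraries contributed levels of 69.7 CPM or more, and the 3 SMOC2 normal libraries 6.82 CPM or less. Wild-type libraries were at 60.0 to 109 CPM in UUO, overlapping those of the label, and at 9.56 to 12.1 CPM in normal kidney. The interaction of Col15a1 was 0.63 (95% interval -0.37 to 1.62), which was 0.03 without WT normal library 3, and that of Col12a1 0.30 (95% interval -0.55 to 1.15). The interval of Col18a1, -0.10 to 0.52, was the narrowest.

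Of 17 other non-fibrillar collagen genes, 13 were tested, of which 7 rose and 2 fell in wild type and 6 rose and 3 fell under the label. Over all genes, 31.3% rose and 29.8% fell in wild type, and 32.5% rose and 30.4% fell under the label. Their median log2 differences were 0.83 and 0.65. Col10a1, the short-chain collagen of hypertrophic cartilage, had 0, 0 and 1 counts in WT normal and 247, 28, 56 and 14 counts in WT UUO libraries, and 5, 1 and 1 against 57, 148, 214 and 35 under the label. Col17a1, a transmembrane collagen of epithelial hemidesmosomes, rose from 2.62 to 17.1 CPM in wild type (log2 2.76, SE 0.63, edgeR adjusted p = 0.00169) and from 2.98 to 22.3 CPM under the label (log2 2.91). Col25a1, also a transmembrane type, fell by 1.32 and by 2.81 on the log2 scale, from levels near 1 CPM.

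Of 19 genes for the modification, folding and export of collagen chains, which include chaperones and export proteins beside enzymes, 10 were higher and 5 lower in wild type and 11 higher and 5 lower under the label (median log2 0.47 in each). The share of lower genes was near that over all genes, 29.8% and 30.4%, and 31.3% and 32.5% of all genes were higher. The collagen chaperone gene Serpinh1 rose from 167 to 453 CPM (log2 1.44, SE 0.16, edgeR adjusted p = 2.29e-06) and Fkbp10, a prolyl isomerase of procollagen, from 7.32 to 46.9 CPM (log2 2.68) in wild type. Colgalt1, which glycosylates hydroxylysine, rose by a log2 of 0.93. P3h2, a prolyl 3-hydroxylase of basement membrane collagen, fell from 180 to 58.1 CPM (log2 -1.63), and P4hb, the abundant disulfide isomerase that is also a subunit of prolyl 4-hydroxylase, from 970 to 626 CPM (log2 -0.63). Of 10 genes tested from a list of processing proteases and the enhancers Pcolce and Pcolce2, 5 rose and 2 fell in wild type. Under the label 5 rose and 1 fell. Over all genes, 31.3% and 32.5% were higher and 29.8% and 30.4% lower. Bmp1, the procollagen C-proteinase, rose from 22.8 to 111 CPM and Mmp14, a membrane collagenase, from 13.6 to 150 CPM in wild type. Pcolce2, an enhancer of that C-proteinase and not a protease, fell from 9.85 to 2.97 CPM. Pcolce2 was also the gene that fell under the label, from 14.3 to 3.8 CPM, so no protease was called lower there.

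Of 13 collagen receptor genes tested, 12 rose and none fell in each label, beside 31.3% and 32.5% of all genes higher, with median log2 differences of 1.68 and 2.13. Antxr1, whose protein binds collagen VI, rose from 4.76 to 37.4 CPM in wild type (log2 2.96, SE 0.28, edgeR adjusted p = 7.16e-07) and from 4.64 to 37.7 CPM under the label (log2 3.03). Mrc2, the endocytic receptor that takes up collagen, rose from 37.2 to 218 CPM in wild type, and Ddr2, a collagen-binding kinase, from 15.8 to 68.4 CPM. Itgb1, the beta subunit of the collagen-binding integrins, rose from 367 to 667 CPM (log2 0.86). Ddr1, an epithelial collagen receptor, was the gene that did not pass, with log2 differences of 0.24 and 0.25 (edgeR adjusted p = 0.0683 and 0.0616). Between labels in UUO kidney, 1 receptor gene was called, beside 0.831% of all genes. It was Cspg4, a pericyte proteoglycan that binds collagen VI, at 49.0 CPM in WT and 66.1 CPM in SMOC2 libraries (log2 0.43, edgeR adjusted p = 0.0483). That p lay near the threshold of 0.05, and the call was not followed over the alternatives.

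Of 10 genes for proteins found between fibrils, 5 rose in each label, where 31.3% and 32.5% of all genes rose. In wild type 3 fell, a share near the 29.8% of all genes, and 0 fell under the label. The lower count was 2 to 3 in wild type and 0 to 1 under the label over the alternatives, and the difference between labels was not tested as a count. Tnc, which encodes the adhesive glycoprotein tenascin C that collagen XII can bind, rose from 10.8 to 157 CPM in wild type (log2 3.84, SE 0.37, edgeR adjusted p = 7.91e-07) and from 6.41 to 253 CPM under the label (log2 5.31). Bgn and Dcn, small proteoglycans that bind collagen VI, rose by log2 values of 1.93 and 1.75 in wild type. Tnxb, the tenascin X gene, fell by 0.70 on the log2 scale in wild type (edgeR adjusted p = 0.0430) and was at -0.64 under the label (edgeR adjusted p = 0.0634). Fmod, another small proteoglycan, did not pass in either label (log2 0.17 and 0.26).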

How the data were processed

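Messenger RNA of 14 whole mouse kidney libraries was measured. Per the labels' protocols, libraries were made with a stranded kit. Build mm10, featureCounts 1.4.4 and STAR 2.4.1d appear in the submitters' processing notes (annotation and strand setting: not given in the sources used here). Raw counts per gene, neither normalized nor pooled, were deposited by the authors; each library has 1 file. Of 47729 identifiers, 47310 matched GENCODE M21. The other 419 held 0.0288% of counts.

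Genes were filtered with filterByExpr and scaled by TMM. A model with 1 mean per group, fitted over the 14 libraries in edgeR 4.0.16 (R 4.3.3), gave 5 comparisons by the quasi-likelihood test, with Benjamini-Hochberg adjustment over 17926 genes, a threshold of 0.05 and 95% intervals. Levels per length use merged exons. Correlations use log2 CPM with a prior count of 2. The edgeR fit was tested on simulated counts with 200 genes changed in WT UUO. Far more genes were called after obstruction here, so that test does not cover scaling under so wide a change. DESeq2 1.42.0, limma 3.58.1 and the settings given at the end were alternatives. No molecular identifiers are named in the labels. Since no label assigns libraries to separate animals, p-values reflect only how these libraries vary, possibly for technical reasons. The 10 genes and the lists were chosen with earlier results of these data known. Named were the 10 genes, Smoc2, list genes with the smallest p or needed for assembly and receptors, and the 5 genes most alike; P4hb, Tnxb, Fmod and Cdh5 fall outside this rule, and they and Col6a5, Col6a6, Ddr1, Ddr2 and Mrc2 were chosen after their values were seen. Sequences are from RefSeq on GRCm38.p6.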

Additional observations from a re-analysis of the deposited data

Results flagged for a closer look

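In SMOC2 UUO kidney, library 2 had Col6a2 at 109 CPM, while the other 3 libraries of the group had 80.2 to 81.0 CPM. The gap took up 0.972 of the whole range, above Dixon's 95% critical value for 4 samples. Among 24 such sets of 4 values looked at for the 10 genes and the chain ratios, this was the 1 that stood out, and chance alone does so in about 1 of 20. Col6a1 and Col6a3 were also highest in that library, at 139 and 268 CPM.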

How the results depend on the processing

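All 10 genes stayed called as higher after UUO in both labels with either other scaling (median-ratio, upper-quartile), with no filter or one of 50 counts in 3 libraries, with DESeq2, the groups compared alone and the replicate block, and under limma-voom in wild type. With limma-voom 9 were called under the SMOC2 label. Leaving out 1 library gave 9 to 10 calls in each label. Upper-quartile scaling moved the median log2 difference of all genes from 0.045 to 0.157 in wild type. Between labels and for the interaction, 0 of the 10 genes were called under every alternative. The numbers of all genes called moved more: with DESeq2 they were 174 (normal), 750 (UUO) and 25 (interaction), against 5, 149 and 0. For SMOC2 UUO against WT UUO they were 232 with limma-voom, 69 with the replicate block, 39 with the compared groups alone and 29 to 158 without 1 library. In normal kidney they were 12 with no filter, 9 with limma-voom, 8 with the compared groups alone and 5 to 21 without 1 library. For the interaction they were 1 with no filter or the replicate block and 0 to 2 without 1 library.

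The labels do not say whether libraries with the same replicate number belong together. Deviations from group means of 18 same-numbered pairs correlated at -0.0996 to 0.132, and 4 of 14 libraries correlated best with one of their own number. No pairing was seen, but with so few libraries per group this cannot exclude it. The replicate block left 10 and 10 calls.

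Some small differences changed sign, and the cause was not tested. With limma-voom Col6a3 in SMOC2 normal against WT normal was -0.13. Without 1 library, SMOC2 normal against WT normal ran from -0.68 to 0.48 for Col6a3, -0.12 to 0.43 for Col7a1, -0.28 to 0.23 for Col12a1, -0.85 to 0.11 for Col15a1 and -0.07 to 0.32 for Col16a1. SMOC2 UUO against WT UUO ran from -0.19 to 0.09 for Col6a2, -0.50 to 0.05 for Col7a1 and -0.05 to 0.14 for Col16a1. The interaction ran from -0.14 to 0.59 for Col6a1, -0.05 to 0.73 for Col6a2, -0.17 to 1.0 for Col6a3, 0.00 to 0.58 for Col12a1 and -0.27 to 0.12 for Col16a1. The log2 ratio to Col6a1 ran from -0.14 to 0.03 for Col6a3 and -0.05 to 0.00 for Col6a2. Depth limited none of the 10 genes, whose lowest count was 87.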
